A study of Mus musculus with 19 samples.

Results

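Transcripts of the intestinal epithelium were followed in RNA of endothelial cells sorted from mouse lymphoid tissue. The set held 38 genes, chosen by symbol as genes of the gut lining, and each of the 38 was measured by 1 probe set among 19938 genes with a single symbol. Total RNA came from wild-type Balb/c mice, an inbred strain, aged 6 to 8 weeks, with males and females mixed equally in each sample, so every sample pooled animals. Capillary endothelial cells and high endothelial cells (HEC, which line the venules where lymphocytes cross from blood into the tissue) were sorted from peripheral lymph nodes (3 capillary and 4 HEC arrays), from mesenteric lymph nodes, which drain the gut (2 capillary and 4 HEC arrays), and from Peyer's patches, groups of lymphoid follicles in the wall of the small intestine (3 arrays of each). The mesenteric HEC were gated as MAdCAM1+/PNAd+ on arrays 1 and 2 and as MAdCAM1+ on arrays 3 and 4. No array was treated. The labels do not give the other gates, and do not say whether epithelial cells were gated out. Nor do they tell whether replicate arrays stem from separate sorts, and the p-values below may therefore reflect technical spread alone.

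A single layer of epithelial cells lines the intestine, and over Peyer's patches it forms a cap directly above the lymphoid follicles. Enterocytes, its most common cells, digest and absorb food through a brush border of microvilli and pack fat into lipoproteins. Goblet cells secrete mucus, Paneth cells at the crypt base secrete antimicrobial proteins, and the transcription factors CDX1, CDX2 and HNF4A hold the intestinal program. Endothelial cells are not known for most of these genes, although a few members are also made by other cells. Because bulk RNA was measured, fewer cells of a type and less RNA per cell cannot be told apart.

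Values are log2 signals that were centred for each probe set, so a value of 0 is a baseline of that probe set and not an absence of RNA, and no level of one gene can be set against another. All differences below are differences of these log2 values (a difference of 1 is a doubling in signal). Adjusted p-values are from limma with Benjamini-Hochberg adjustment over all 19938 genes, and a gene is called past 0.05. Counts at an unadjusted p under 0.05 are given without a share of all genes, which was not taken at that threshold. The spread between replicate arrays was uneven. Over the members, the median SD within a group was 0.561 in Peyer's patch capillary cells and 0.308 in Peyer's patch HEC, and 0.0621 to 0.116 in the 5 node groups. Over all genes the same medians were 0.118, 0.188 and 0.0892 to 0.134. limma pooled 1 spread per gene over all groups, so an SE here does not reflect the spread of the Peyer's patch groups alone. For genes with more spread in those groups, pooling makes the SE and p-value of Peyer's patch comparisons too small. In the same genes the SE of a comparison between node groups is too large. Fabp2, for example, had an SD of 2.33 over the 3 Peyer's patch capillary arrays and 0.09 over the 3 peripheral capillary arrays. Peyer's patch HEC array 2 also stood apart over all genes: its values lay above every node array for 22.9% of genes, against 7.55% to 12.8% for the other five Peyer's patch arrays.

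Promoters of 32 members were found in the RefSeq table of build GRCm38.p6, as 35 windows of 300 bases that run from 250 bases before to 50 bases after the start of the gene. The letters TTTATG, a core that CDX factors bind, occurred on either strand in 8 of these 35 windows, in Cdhr5, Epcam, Fabp1, Lct, Muc13, Reg3b, Sis and Tspan8, and in 11.9% of all 32851 windows of the table. The letters CAAAGTCCA or CAAAGTTCA, forms of the HNF4 site, occurred in 3 of the 35, in Alpi, Apoa4 and Muc13, and in 0.861% of all windows. AGATAA, a site of GATA factors, was in 6 of the 35 and in 11.2% of all. TATAAA was in 9 of the 35 and in 13.6% of all. A match is a description of the letters, not a site of binding, and these motifs can overlap one another. The windows of the 4 members that differed most between tissues among those with a CDX or HNF4 match are shown. These members encode an antimicrobial lectin, a digestive enzyme, a tetraspanin and a surface mucin. Capitals mark CDX, HNF4 and TATAAA matches on either strand, each sequence runs 5′ to 3′ on the strand of the gene, and the lines give Reg3b (chr6:78370635-78370934, plus strand), Sis (chr3:72967814-72968113, minus strand), Tspan8 (chr10:115817034-115817333, plus strand) and the 2 windows of Muc13 (chr16:33793787-33794086, plus strand, and chr16:33794239-33794538, plus strand).
Reg3b: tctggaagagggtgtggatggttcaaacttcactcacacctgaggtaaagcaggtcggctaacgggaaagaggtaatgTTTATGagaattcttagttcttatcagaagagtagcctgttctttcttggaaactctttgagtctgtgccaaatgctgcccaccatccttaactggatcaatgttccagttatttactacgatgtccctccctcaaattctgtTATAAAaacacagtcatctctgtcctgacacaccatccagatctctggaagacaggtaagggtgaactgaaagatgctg
Sis: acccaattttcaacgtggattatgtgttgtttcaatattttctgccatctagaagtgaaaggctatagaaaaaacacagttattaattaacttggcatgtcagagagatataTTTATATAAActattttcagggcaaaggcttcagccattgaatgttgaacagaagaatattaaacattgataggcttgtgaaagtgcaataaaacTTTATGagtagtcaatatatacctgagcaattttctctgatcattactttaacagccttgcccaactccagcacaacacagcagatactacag
Tspan8: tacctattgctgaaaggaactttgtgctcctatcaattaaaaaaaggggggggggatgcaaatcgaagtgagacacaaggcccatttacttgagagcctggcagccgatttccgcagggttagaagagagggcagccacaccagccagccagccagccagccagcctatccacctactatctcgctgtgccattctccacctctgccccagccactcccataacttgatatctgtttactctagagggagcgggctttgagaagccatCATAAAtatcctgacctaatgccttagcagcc
Muc13, first window: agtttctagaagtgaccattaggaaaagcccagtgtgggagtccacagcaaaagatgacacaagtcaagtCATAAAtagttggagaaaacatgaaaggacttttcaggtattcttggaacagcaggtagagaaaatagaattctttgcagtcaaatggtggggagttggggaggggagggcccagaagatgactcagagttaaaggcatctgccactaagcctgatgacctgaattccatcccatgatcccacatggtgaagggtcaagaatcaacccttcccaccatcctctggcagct
Muc13, second window: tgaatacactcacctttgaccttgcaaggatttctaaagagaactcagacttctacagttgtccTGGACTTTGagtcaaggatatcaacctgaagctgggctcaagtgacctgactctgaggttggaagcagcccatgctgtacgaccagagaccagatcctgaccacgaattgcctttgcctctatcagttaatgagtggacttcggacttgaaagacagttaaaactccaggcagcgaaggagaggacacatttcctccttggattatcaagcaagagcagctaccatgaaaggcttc
Counted from the first printed base, the CDX match of the Sis window starts at base 208 and its TATAAA matches, 1 on each strand, at bases 113 and 117. In the Reg3b window the CDX match starts at base 79 and TATAAA at base 222. The Tspan8 match starts at base 269, after the start of the gene, and the Muc13 windows hold a CDX match at base 71 of the first and an HNF4 match at base 65 of the second, these 3 on the opposite strand.

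The first comparison set Peyer's patch endothelium against node endothelium, as the mean of HEC and capillary cells in Peyer's patches (6 arrays) minus the mean of the same cell types in peripheral and mesenteric nodes (13 arrays). Epithelial transcripts were higher in the Peyer's patch sorts across all roles, from adhesion molecules and brush border enzymes to mucus, lectins and apolipoproteins. Of the 38 members 26 were called higher, where 2.51% of all genes were, and none was called lower, where 3.37% of all genes were. At an unadjusted p under 0.05 the counts were 35 higher and 0 lower. The median difference over the members was 0.58, against 0.00 over all genes, and 37 of the 38 differences were positive. In 6 members (Epcam, Cdh17, Krt19, Tff3, Muc13 and Pigr) every Peyer's patch array lay above every node array, as it did for 0.231% of all genes. In 0 members every Peyer's patch array lay below every node array, as it did for 0.0853% of all genes. The members were chosen with earlier results of these arrays known, so their count is a description of this set. Without Peyer's patch HEC array 2 the count of members called was 17. Under all 27 alternative settings 16 of the 26 kept their call: Epcam, Cdh1, Cdh17, Krt8, Krt19, Vil1, Anpep, Muc2, Tff3, Spink4, Reg3b, Muc13, Lgals4, Tspan8, Pigr and Elf3.

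**Figure D1:**
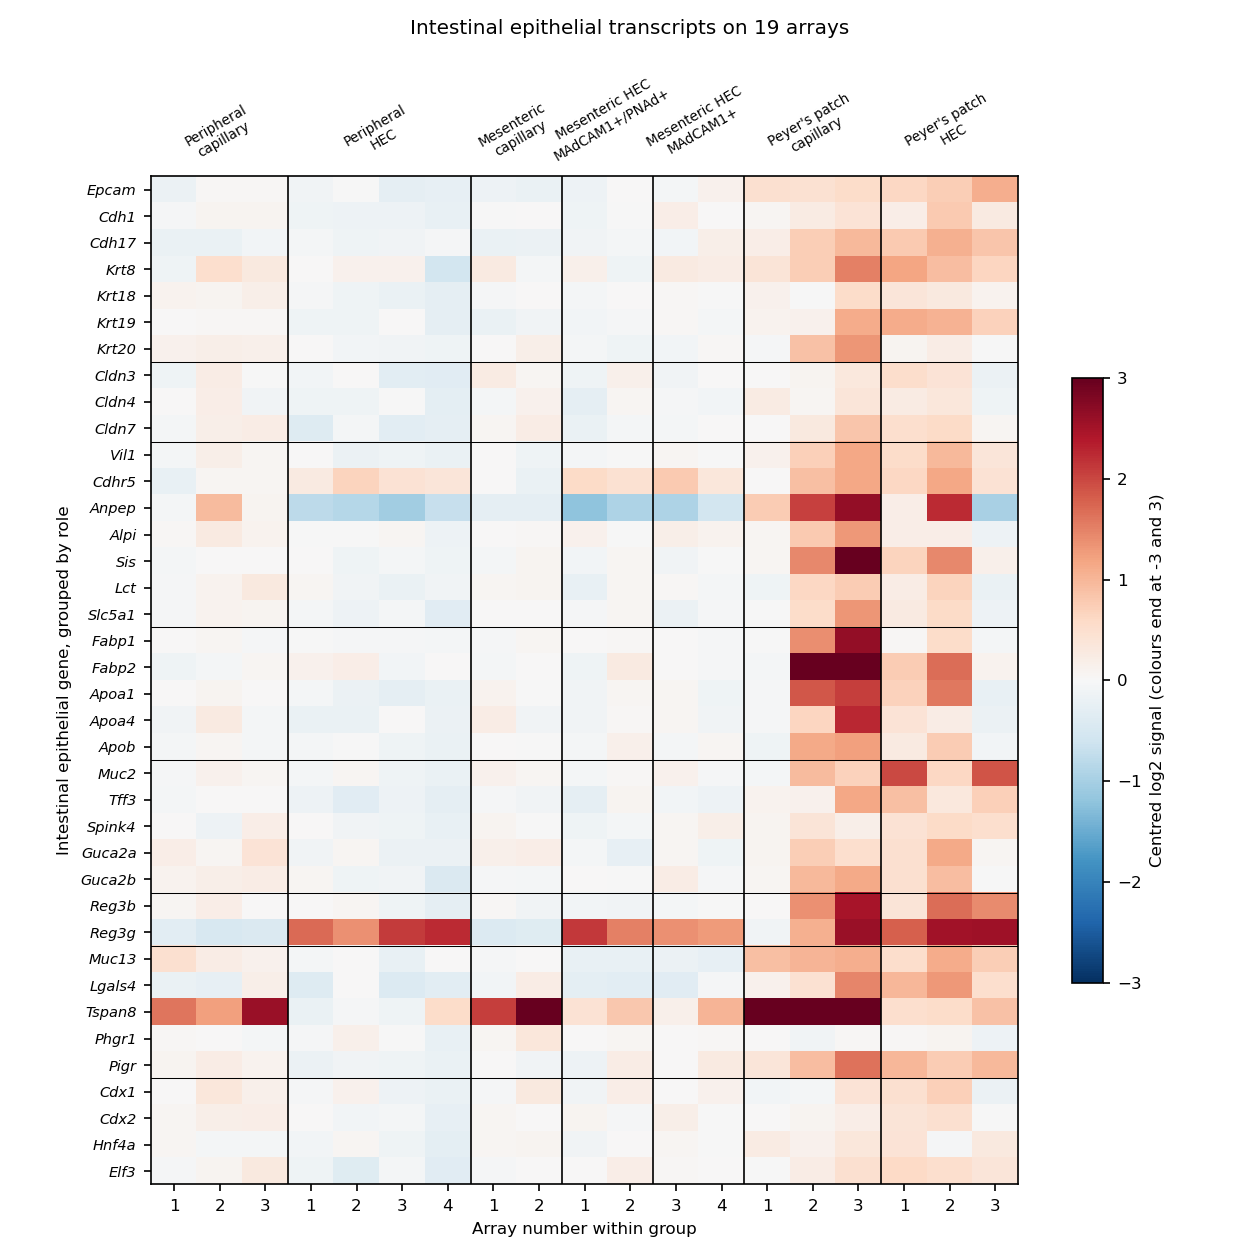
Centred log2 signal of the 38 intestinal epithelial genes (rows, in blocks by role) on the 19 arrays (columns, in blocks by group); colours end at -3 and 3 log2. Most rows are near 0 on the 13 node arrays and above 0 on most Peyer's patch arrays, while Reg3g is high in HEC of all tissues and Tspan8 in capillary cells of all tissues.

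**Figure D2:**
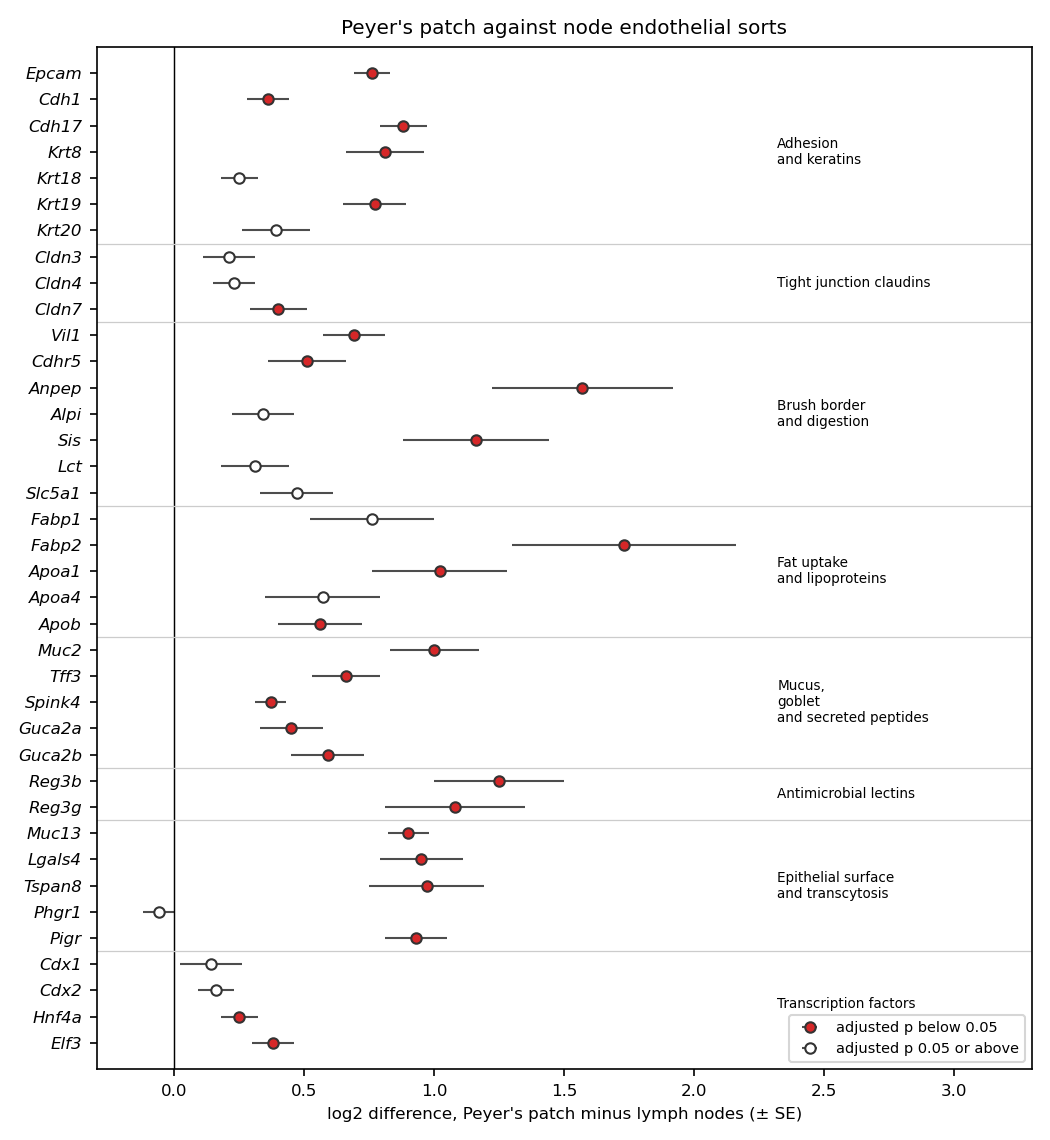
Difference of each member between Peyer's patch and node endothelium in log2 (points, ± SE of limma), in blocks by role; filled points have an adjusted p below 0.05. The 26 called members are all positive, from Hnf4a at 0.25 to Fabp2 at 1.73, and Phgr1 alone has a difference below 0.

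Adhesion molecules and keratins are what any simple epithelium uses to hold together. Of 7 measured, 5 were called higher, with a median difference of 0.76, and each gene spanned 0.57 to 1.35 log2 over the 6 Peyer's patch arrays. Epcam, the epithelial adhesion molecule, had values of 0.48, 0.45 and 0.56 on Peyer's patch capillary arrays 1 to 3 and 0.63, 0.74 and 1.09 on HEC arrays 1 to 3. On the 13 node arrays it ran from -0.27 over a median of -0.10 to 0.13, so the groups did not overlap, and it was higher by 0.76 ± 0.07 (adjusted p = 2.08e-06). Cdh17, the cadherin of intestine and liver, had 0.20, 0.74 and 0.97 in capillary cells and 0.78, 1.06 and 0.84 in HEC, against -0.21 to 0.17 on node arrays (0.88 ± 0.09, adjusted p = 4.52e-06). Krt8, a keratin of simple epithelia, had 0.39, 0.74 and 1.51 in capillary cells and 1.18, 0.93 and 0.65 in HEC. Its node arrays ran from -0.56 to 0.50, so that 1 of the 6 Peyer's patch arrays, capillary array 1, lay among them (0.81 ± 0.15, adjusted p = 0.00262). Krt19, another such keratin, was low on capillary arrays 1 and 2 (0.10 and 0.12) and high on capillary array 3 (1.11) and on HEC arrays 1 to 3 (1.11, 1.04 and 0.69), with node arrays from -0.28 to 0.04 (0.77 ± 0.12, adjusted p = 4.26e-04). Cdh1, which encodes E-cadherin, was higher by 0.36 ± 0.08 (adjusted p = 0.00946). Krt18, the partner of Krt8, differed by 0.25 ± 0.07 (adjusted p = 0.0572) and Krt20, a keratin of mature surface cells, by 0.39 ± 0.13 (adjusted p = 0.108). Krt18 passed without Peyer's patch capillary array 2 (0.31) or HEC array 3 (0.29), and Krt20 without capillary array 1 (0.57).

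Among tight junction claudins, which seal the space between epithelial cells, Cldn7 was the only 1 of 3 called. It was higher by 0.40 ± 0.11 (adjusted p = 0.0291), with 0.00, 0.30 and 0.83 in Peyer's patch capillary cells, 0.50, 0.58 and 0.07 in HEC, and -0.38 to 0.23 on node arrays. That call was lost when any 1 of 6 arrays was left out: mesenteric capillary array 1 (0.38), peripheral capillary array 1 (0.38), Peyer's patch capillary array 2 (0.42) or 3 (0.29), or Peyer's patch HEC array 1 (0.37) or 2 (0.35). Cldn3 had 0.01, 0.09 and 0.32 in Peyer's patch capillary cells and 0.53, 0.41 and -0.17 in HEC, with -0.34 to 0.25 on node arrays (0.21 ± 0.10, adjusted p = 0.335). Cldn4 had 0.25, 0.05 and 0.37 in capillary cells and 0.25, 0.35 and -0.12 in HEC, with -0.29 to 0.19 on node arrays (0.23 ± 0.08, adjusted p = 0.118). In both genes HEC array 3 was the lowest of the 6, and both passed without Peyer's patch HEC array 3, at 0.31 and 0.30.

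Brush border and digestive genes were called higher for 4 of 7, and several varied widely between the Peyer's patch arrays. Sis, the sucrase-isomaltase that splits sugars at the microvilli, had 0.07, 1.45 and 3.05 on capillary arrays 1 to 3 and 0.67, 1.43 and 0.16 on HEC arrays 1 to 3, and -0.13 to 0.08 on the 13 node arrays. Capillary array 1 thus lay within the node range and capillary array 3 far above it. The difference was 1.16 ± 0.28 (adjusted p = 0.0192), and it lost its call without Peyer's patch HEC array 2 (0.99). Anpep, the brush border aminopeptidase N, which fibroblasts, pericytes and myeloid cells also make, had 0.76, 2.06 and 2.63 in capillary cells and 0.21, 2.24 and -0.97 in HEC. Its node arrays ran from -1.20 to 0.95, with the highest on peripheral capillary array 2, so the groups overlapped (1.57 ± 0.35, adjusted p = 0.00922). On that peripheral array the list of 10 myeloid genes had a mean of 0.70, the highest of the 19 arrays, the 10 pericyte genes 1.13 and the 10 fibroblast genes 0.56; their part in the Anpep value was not tested. Vil1, villin of the microvillus core, was higher by 0.69 ± 0.12 (adjusted p = 0.00103), with 0.13, 0.72 and 1.15 in capillary cells and 0.54, 0.98 and 0.36 in HEC against -0.19 to 0.17 on node arrays. Cdhr5, a cadherin that links microvilli, had 0.90 and 1.17 on capillary arrays 2 and 3 and 0.63, 1.17 and 0.44 in HEC, with capillary array 1 at baseline and node arrays from -0.22 to 0.79. Its ranges overlapped, and it was called at 0.51 ± 0.15 (adjusted p = 0.0491). It lost that call when any 1 of 15 of the 19 arrays was left out, with values of 0.39 to 0.68 over all 19 such fits. The sodium-glucose transporter Slc5a1 differed by 0.47 ± 0.14 (adjusted p = 0.0651), the alkaline phosphatase Alpi by 0.34 ± 0.12 (adjusted p = 0.142) and lactase, Lct, by 0.31 ± 0.13 (adjusted p = 0.218). Without Peyer's patch capillary array 1 these 3 passed, at 0.63, 0.50 and 0.45, and without HEC array 3 Slc5a1 (0.57) and Lct (0.41) passed.

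Genes of fat uptake were called higher for 3 of 5, and each spanned 1.35 to 4.18 log2 over the 6 Peyer's patch arrays. Fabp2, the intestinal fatty acid binding protein, had -0.07, 4.10 and 3.82 on Peyer's patch capillary arrays 1 to 3, 0.75, 1.68 and 0.11 on HEC arrays 1 to 3, and -0.12 to 0.27 on node arrays. So 2 capillary arrays stood near 4 log2 above the nodes while capillary array 1 and HEC array 3 lay among them. The difference was 1.73 ± 0.43 (adjusted p = 0.0218), lost without capillary array 2 (1.36) or 3 (1.43) or HEC array 1 (1.75) or 2 (1.52) of Peyer's patches. Apoa1, an apolipoprotein of high density lipoprotein, had -0.04, 1.86 and 2.07 in capillary cells and 0.69, 1.59 and -0.23 in HEC, with -0.26 to 0.10 on node arrays (1.02 ± 0.26, adjusted p = 0.0253). Its call was lost without mesenteric capillary array 2 (1.01), Peyer's patch capillary array 2 (0.88) or 3 (0.83), or HEC array 1 (1.02) or 2 (0.79). Apob, the structural protein of chylomicrons, was called at 0.56 ± 0.16 (adjusted p = 0.0476), but not when any 1 of 17 of the 19 arrays was left out (0.44 to 0.78 over all 19 fits). Fabp1, a binding protein shared with liver, had -0.02, 1.40 and 2.63 in capillary cells and 0.03, 0.55 and -0.06 in HEC, with -0.06 to 0.05 on node arrays. Apoa4, an apolipoprotein of the gut, had -0.04, 0.65 and 2.25 in capillary cells and 0.40, 0.22 and -0.17 in HEC, with -0.20 to 0.26 on node arrays. The differences of Fabp1 (0.76 ± 0.24, adjusted p = 0.0822) and Apoa4 (0.57 ± 0.22, adjusted p = 0.180) missed the threshold and passed without Peyer's patch capillary array 1, at 1.10 and 0.82. Since several of these genes are also made by liver, 10 genes listed for liver were set beside them. Of these, 0 were called in either direction, with a median difference of 0.01. At an unadjusted p under 0.05, 1 was higher and 1 lower. Apoc3 of that list had -0.02, 0.42 and 0.51 on Peyer's patch capillary arrays 1 to 3, with -0.17 to 0.38 on node arrays.

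All 5 genes of mucus and secreted peptides were called higher, with a median difference of 0.59. Muc2, the gel-forming mucin of goblet cells, had its highest values on HEC arrays, with 1.98, 0.62 and 1.88 on HEC arrays 1 to 3, -0.05, 0.94 and 0.70 on capillary arrays 1 to 3 and -0.21 to 0.13 on node arrays. Capillary array 1 alone lay among the nodes, and the difference was 1.00 ± 0.17 (adjusted p = 9.62e-04). Tff3, the trefoil peptide packed with mucin, had 0.11, 0.13 and 1.15 in capillary cells and 0.90, 0.32 and 0.72 in HEC, all above the node range of -0.34 to 0.08 (0.66 ± 0.13, adjusted p = 0.00306). Spink4, a protease inhibitor of goblet cells, was higher by 0.37 ± 0.06 (adjusted p = 0.00118). Guca2b, the gut hormone uroguanylin, had 0.07, 0.98 and 1.14 in capillary cells and 0.49, 0.92 and -0.01 in HEC, with -0.44 to 0.22 on node arrays (0.59 ± 0.14, adjusted p = 0.0171). Guca2a, guanylin, had 0.09, 0.73 and 0.51 in capillary cells and 0.48, 1.13 and 0.06 in HEC, with -0.25 to 0.40 on node arrays (0.45 ± 0.12, adjusted p = 0.0391). In both, capillary array 1 and HEC array 3 lay among the nodes. Guca2b lost its call without Peyer's patch capillary array 2 (0.53) or 3 (0.49) or HEC array 2 (0.48), and Guca2a when any 1 of 13 of the 19 arrays was left out (0.31 to 0.57 over all 19 fits).

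The 2 antimicrobial lectins, secreted C-type lectins that bind bacteria at the mucosa, were both called, but only Reg3b was flat on node arrays. Reg3b had 0.00, 1.37 and 2.48 on Peyer's patch capillary arrays 1 to 3 and 0.38, 1.68 and 1.42 on HEC arrays 1 to 3, against -0.26 to 0.21 on node arrays (1.25 ± 0.25, adjusted p = 0.00478). Reg3g was already high in node HEC and is described below (1.08 ± 0.27, adjusted p = 0.0206, and not called without Peyer's patch HEC array 2, at 1.02). Among surface proteins 4 of 5 were called. Pigr, the receptor that carries IgA across the epithelium, had 0.37, 0.93 and 1.62 in capillary cells and 0.99, 0.77 and 0.97 in HEC, above the node range of -0.19 to 0.26 on all 6 arrays (0.93 ± 0.12, adjusted p = 1.07e-04). Muc13, a membrane mucin, was as even as Epcam, with 0.91, 1.01 and 1.08 in capillary cells, 0.53, 1.11 and 0.73 in HEC and -0.25 to 0.47 on node arrays (0.90 ± 0.08, adjusted p = 7.36e-07). Lgals4, a galectin of the gut, had 0.13, 0.46 and 1.47 in capillary cells and 1.00, 1.31 and 0.50 in HEC, with only capillary array 1 inside the node range of -0.42 to 0.23 (0.95 ± 0.16, adjusted p = 0.00103). The tetraspanin Tspan8 was higher by 0.97 ± 0.22 (adjusted p = 0.0103), a mean over 2 unlike cell types. Its capillary mean was 3.84 in Peyer's patches, against 1.81 in peripheral and 2.60 in mesenteric nodes. In HEC the Peyer's patch mean was 0.64, against 0.05 in peripheral nodes and 0.63 and 0.60 in the 2 mesenteric gates. Phgr1, a small protein abundant in gut epithelium, differed by -0.06 ± 0.06 (adjusted p = 0.734), and its range over the 6 Peyer's patch arrays (-0.16 to 0.08) lay inside that of the nodes (-0.22 to 0.33).

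Transcription factors of the epithelium differed by little. Elf3, an epithelial ETS factor, was higher by 0.38 ± 0.08 (adjusted p = 0.00523), with -0.01, 0.22 and 0.49 in Peyer's patch capillary cells, 0.59, 0.51 and 0.37 in HEC and -0.37 to 0.30 on node arrays. Hnf4a was called at 0.25 ± 0.07 (adjusted p = 0.0365) and lost that call when any 1 of 11 of the 19 arrays was left out (0.21 to 0.31 over all 19 fits). Its Peyer's patch values were 0.25, 0.12 and 0.34 in capillary cells and 0.40, -0.03 and 0.30 in HEC, with -0.30 to 0.08 on node arrays. Of the intestinal homeobox factors, Cdx1 had -0.09, -0.05 and 0.40 in Peyer's patch capillary cells and 0.47, 0.72 and -0.17 in HEC, with -0.21 to 0.35 on node arrays (0.14 ± 0.12, adjusted p = 0.668). Cdx2 had 0.02, 0.09 and 0.19 in capillary cells and 0.39, 0.48 and -0.01 in HEC, with -0.25 to 0.21 on node arrays (0.16 ± 0.07, adjusted p = 0.274). Both were above the node range only on HEC arrays 1 and 2 and, for Cdx1, on capillary array 3. Cdx2 passed without Peyer's patch HEC array 3 (0.23).

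Split by cell type, the difference was called for more members in HEC than in capillary cells, although the 2 sets of calls were not shown to differ. In Peyer's patch against peripheral HEC (3 against 4 arrays) 17 members were called higher and 0 lower, against 2.16% and 4.49% of all genes, with a median difference of 0.62. They were Epcam, Cdh1, Cdh17, Krt8, Krt18, Krt19, Cldn7, Vil1, Muc2, Tff3, Spink4, Guca2a, Muc13, Lgals4, Pigr, Cdx2 and Elf3. The largest was Muc2 (1.58 ± 0.25, adjusted p = 7.29e-04), then Lgals4 (1.22 ± 0.24, adjusted p = 0.00509). Against mesenteric HEC (4 arrays) 8 were called higher and 0 lower, against 0.557% and 0.642% of all genes, with a median of 0.45: Epcam, Cdh17, Krt19, Muc2, Spink4, Muc13, Lgals4 and Pigr. That count was 14 without Peyer's patch HEC array 3, 3 without HEC array 1, 4 without HEC array 2, and 5 without either mesenteric HEC array 1 (MAdCAM1+/PNAd+) or mesenteric HEC array 3 (MAdCAM1+). Both comparisons share the Peyer's patch arrays.

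In Peyer's patch against peripheral capillary cells (3 against 3 arrays) 7 members were called higher and 0 lower, against 2.40% and 2.24% of all genes, with a median difference of 0.57: Epcam, Cdh17, Fabp2, Reg3g, Muc13, Tspan8 and Pigr. Fabp2 differed by 2.66 ± 0.70 (adjusted p = 0.0369) and Tspan8 by 2.02 ± 0.35 (adjusted p = 0.00164). The count was 20 when Peyer's patch capillary array 1 was left out, 4 when capillary array 2 or 3 was, and 3 and 4 when peripheral capillary array 1 or 3 was. Against mesenteric capillary cells (2 arrays) Epcam, Cdh17, Muc13 and Pigr were called (4 members higher and 0 lower, against 1.02% and 0.833% of all genes), with a median of 0.65. Leaving out Peyer's patch capillary array 1 gave a count of 19, and leaving out mesenteric capillary array 1 or 2 a count of 1. Epcam, Cdh17, Muc13 and Pigr were thus called in all 4 comparisons of Peyer's patch with a node group, which share the Peyer's patch arrays of each cell type. The interaction, which asks whether the Peyer's patch minus peripheral difference was unequal in HEC and capillary cells, called 0 members by limma, against 1.69% of all genes with a more positive and 2.37% with a more negative difference. At an unadjusted p under 0.05 it held 7 more positive and 1 more negative members, led by Elf3 (0.60 ± 0.17, adjusted p = 0.0604). The count called after adjustment rose from 0 to 5 without Peyer's patch capillary array 1, and to 3 without capillary array 3 or HEC array 3. It was 1 without HEC array 2 or peripheral capillary array 1 or 3.

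No member was called between mesenteric nodes, which drain the gut, and peripheral nodes. In HEC 0 of 38 members were called by limma (1 at an unadjusted p under 0.05), against 0.722% of all genes called higher and 1.97% lower. The median difference over the members was 0.11 there, against 0.03 over all genes. In capillary cells 0 were called and 0 passed an unadjusted p under 0.05, with a median of -0.04, against 0.120% of all genes called higher and 0.171% lower. The 2 mesenteric HEC gates also gave 0 calls and 0 members at an unadjusted p under 0.05, with 0% of all genes called higher and 0.0201% lower in the double-positive gate. These comparisons rest on 2 to 4 arrays a side, and a difference that misses the threshold is not shown to be absent. Their pooled SE also includes the spread of the Peyer's patch arrays.

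The 6 Peyer's patch arrays differed in which epithelial genes they held. Capillary arrays 2 and 3 were high in enterocyte genes: on each of them all 12 members of the brush border and fat uptake roles lay above every node array, with medians of 1.02 and 1.70. On capillary array 1 none of these 12 lay above the nodes and their median was -0.01, while 8 of 21 members outside the enterocyte and secreted roles did, Epcam and Muc13 among them. HEC array 2 had 10 of the 12 above the nodes (median 0.88), HEC array 1 had 7 (0.34) and HEC array 3 had 2 (-0.12). The 5 mucus and secreted members followed another order, with medians of 0.49, 0.62 and 0.50 on HEC arrays 1 to 3 and 0.08, 0.73 and 0.70 on capillary arrays 1 to 3. HEC array 3 thus had most enterocyte members at node level together with Muc2 at 1.88, Reg3b at 1.42 and Pigr at 0.97. Of the 5 secreted members 3 lay above the nodes on that array, and Guca2a (0.06) and Guca2b (-0.01) did not. Of the 3 claudins 0 did (-0.17 to 0.07). Over all 38 members the numbers above every node array were 9, 30 and 35 on capillary arrays 1 to 3 and 28, 33 and 17 on HEC arrays 1 to 3, against 7.55% to 22.9% of all genes on the same arrays. Capillary array 3 held the highest of the 6 values for 24 members and capillary array 1 the lowest for 19. As a description over the 38 members, the profiles of capillary arrays 2 and 3, each minus the node mean, had a Pearson r of 0.85 and those of HEC arrays 1 and 3 had 0.70, while capillary array 3 and HEC array 3 had -0.04. The same node mean is subtracted from all of them, and genes are not independent replicates.

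**Figure D3:**
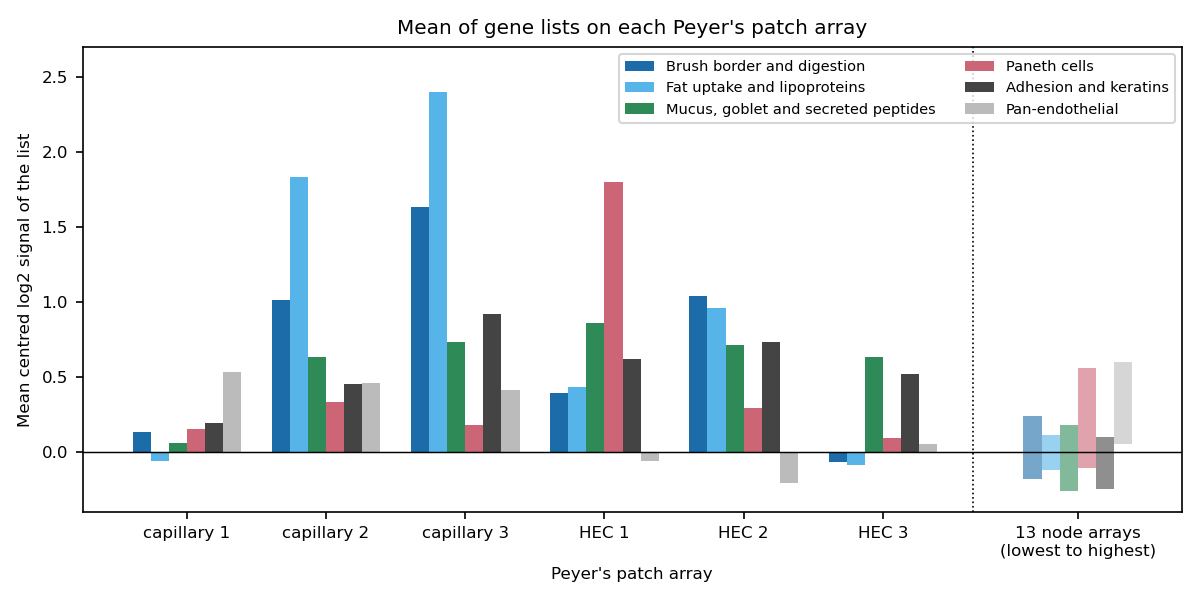
Mean centred log2 signal (vertical axis) of 6 gene lists on each of the 6 Peyer's patch arrays, with the lowest to highest mean over the 13 node arrays at the right. Fat uptake genes peak on capillary array 3 at 2.40 and Paneth cell genes on HEC array 1 at 1.80, while capillary array 1 stays at or below 0.19 for the 5 epithelial lists.

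Paneth cell genes, a list outside the 38, marked a single array. All 6 measured (of 9 listed) were highest of the 19 arrays on Peyer's patch HEC array 1. The list mean was 1.80 there, against 0.09 to 0.33 on the other Peyer's patch arrays and -0.11 to 0.56 on node arrays. The 0.56 was on peripheral capillary array 2, where the Paneth gene Ang4 had 0.34, against 0.45 on Peyer's patch HEC array 1. On HEC arrays 1 to 3 the phospholipase Pla2g2a had 3.24, 0.62 and 0.33, the defensin Defa24 had 1.45 and 0.13 on arrays 1 and 2 and was at baseline on array 3, the lectin Itln1 had 0.83, 0.09 and -0.01, and the metalloproteinase Mmp7 had 0.72, 0.20 and 0.18. Lysozyme Lyz1 was 4.10 on HEC array 1, but it is nearly identical to Lyz2 of myeloid cells, and on peripheral capillary array 2, where Lyz2 stood at 4.23, Lyz1 stood at 2.91. As a group the Paneth list had 1 gene called in Peyer's patches against nodes, Pla2g2a (1.00 ± 0.28, adjusted p = 0.0481), which was above every node array on all 6 Peyer's patch arrays. Of all genes 2.51% were called higher in that comparison.

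Between cell types within a tissue, few members were called. In Peyer's patch HEC against Peyer's patch capillary cells (3 against 3 arrays) Muc2 was called higher (0.96 ± 0.27, adjusted p = 0.0175), and Tspan8 (-3.19 ± 0.35, adjusted p = 2.86e-06), Fabp1 (-1.16 ± 0.39, adjusted p = 0.0468), Alpi (-0.64 ± 0.20, adjusted p = 0.0325) and Krt20 (-0.62 ± 0.21, adjusted p = 0.0475) lower. That is 1 member higher and 4 lower, against 8.90% and 10.6% of all genes, so the share of members is near or under that of all genes. At an unadjusted p under 0.05 there were 5 members higher and 7 lower. The share of all genes at that threshold was not taken, so no excess can be read from these counts. Tspan8 alone kept its call under all 27 settings, and for the other called members the arrays of HEC and capillary cells overlapped. Capillary array 1 had -0.02 for Fabp1, 0.07 for Alpi and -0.03 for Krt20, where HEC arrays ran up to 0.55, 0.20 and 0.22. Muc2 was 0.62 on HEC array 2, below 0.94 and 0.70 on capillary arrays 2 and 3. The count of 5 members called after adjustment was 12 without Peyer's patch capillary array 1, 8 without capillary array 3 and 2 without HEC array 1. It was 3 without capillary array 2 or without any 1 of 11 of the 13 node arrays (all but peripheral capillary arrays 2 and 3).

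Reg3g and Tspan8 set HEC and capillary cells apart in both kinds of node, with the largest differences among the 38 members. Reg3g had 1.70, 1.37, 2.10 and 2.24 on peripheral HEC arrays 1 to 4 and -0.32, -0.48 and -0.44 on peripheral capillary arrays 1 to 3 (2.27 ± 0.41, adjusted p = 5.20e-04). In mesenteric nodes it had 2.11 and 1.51 in the double-positive HEC, 1.38 and 1.28 in the MAdCAM1+ HEC, and -0.42 and -0.36 in capillary cells (1.96 ± 0.46, adjusted p = 0.00641, not called without mesenteric capillary array 1, at 1.93). The groups did not overlap in either tissue. In Peyer's patches HEC had 1.80, 2.53 and 2.54, inside or just above the range of node HEC, while capillary arrays 1 to 3 had -0.10, 1.07 and 2.58. Reg3g in Peyer's patch against peripheral capillary cells was therefore higher (1.60 ± 0.44, adjusted p = 0.0454), and in HEC it differed by 0.44 ± 0.41. Its close relative Reg3b showed no such pattern in nodes, with -0.17 ± 0.38 for HEC minus capillary cells in peripheral nodes. Tspan8 ran the other way, with 1.61, 1.22 and 2.60 on peripheral capillary arrays and -0.20, -0.03, -0.12 and 0.55 on peripheral HEC arrays (-1.76 ± 0.33, adjusted p = 7.61e-04). In mesenteric nodes capillary arrays had 2.08 and 3.12 and HEC arrays 0.43, 0.82, 0.16 and 1.03 (-1.99 ± 0.38, adjusted p = 9.98e-04). Peyer's patch capillary cells were the highest, at 3.21, 4.12 and 4.18, and HEC there had 0.50, 0.56 and 0.87. In peripheral nodes Muc13 and Elf3 were also called lower in HEC, by -0.34 ± 0.12 (adjusted p = 0.0438) and -0.35 ± 0.12 (adjusted p = 0.0403), so that 1 member was higher and 3 lower, against 13.1% and 11.4% of all genes. Most differences there were small and negative: 4 of 38 were positive and the median was -0.19, against -0.05 over all genes. All HEC arrays lay below all capillary arrays for 14 members and above them for 2, as they did for 19.6% and 15.4% of all genes, and 7 members were lower and 1 higher at an unadjusted p under 0.05. Leaving out peripheral capillary array 2, peripheral HEC array 4 or Peyer's patch capillary array 2 left 2 calls there, Reg3g and Tspan8. In mesenteric nodes 1 was higher and 1 lower, against 7.87% and 7.31% of all genes (2 and 1 at an unadjusted p under 0.05), and 1 call remained without mesenteric capillary array 1. Anpep ran from -1.20 to -0.56 on the 8 node HEC arrays and from -0.28 to 0.95 on the 5 node capillary arrays, a difference of -1.16 ± 0.53 (adjusted p = 0.120) in peripheral and -0.63 ± 0.60 (adjusted p = 0.641) in mesenteric nodes, without passing. Cdhr5 had 0.27 to 0.67 on peripheral HEC and -0.22 to 0.07 on peripheral capillary arrays without passing (0.46 ± 0.22). In mesenteric nodes it had 0.34 to 0.79 on HEC arrays and -0.21 and -0.00 on capillary arrays, also without a call. Neither Cdhr5 nor Anpep overlapped between cell types in either kind of node, and their pooled SE includes the wider Peyer's patch spread. The SD of Cdhr5 was 0.17 in both peripheral groups, and 0.61 and 0.38 in Peyer's patch capillary cells and HEC.

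**Figure D4:**
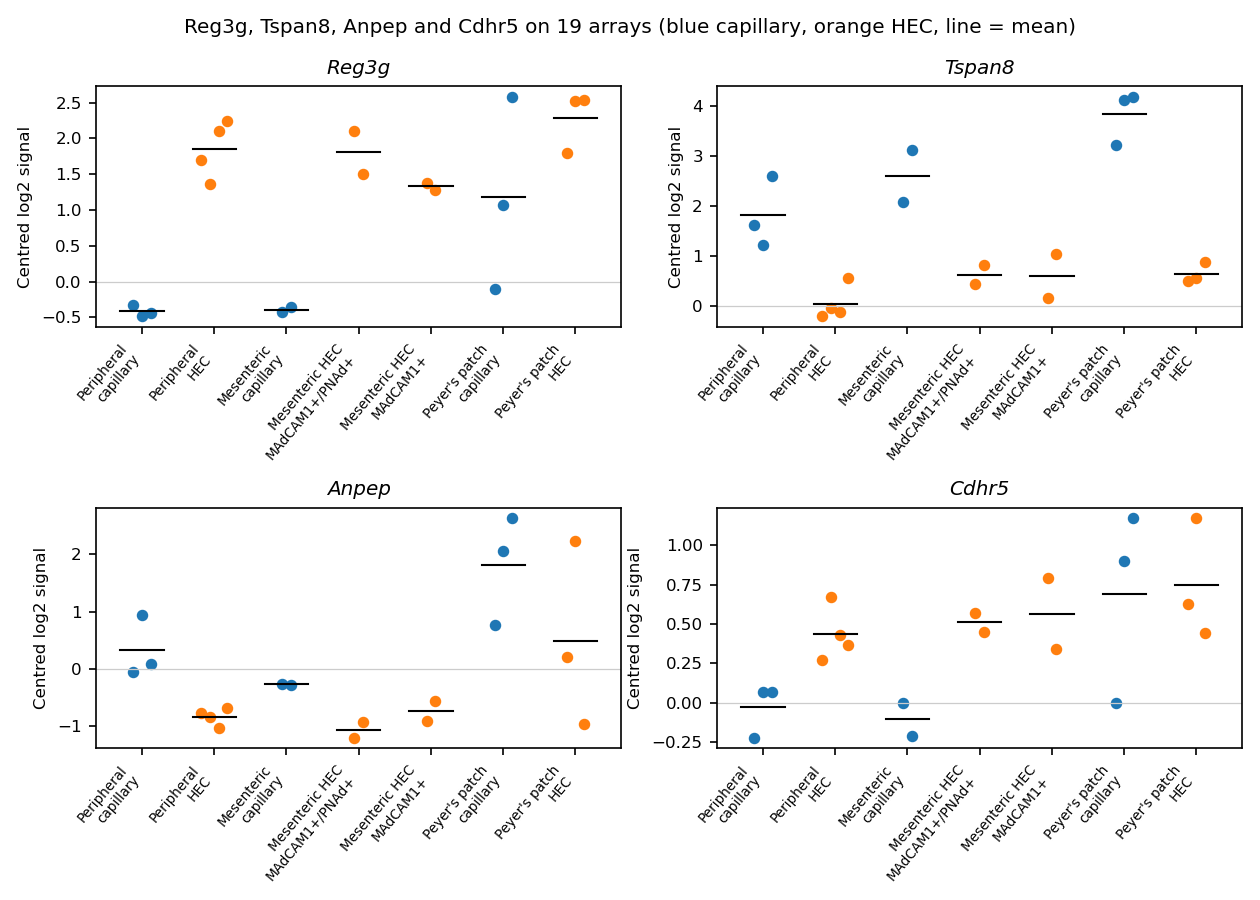
Centred log2 signal of Reg3g, Tspan8, Anpep and Cdhr5 on every array (points, blue for capillary cells and orange for HEC) with the mean of each group (line). Reg3g separates HEC from capillary cells in both kinds of node, and Tspan8 separates them the other way in all 3 tissues. In both kinds of node Cdhr5 is higher in HEC and Anpep in capillary cells without overlap. The Peyer's patch points of Anpep and Cdhr5 spread widely.

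Other genes of the gut lining, listed by cell type and not among the 38, moved less as groups. Between Peyer's patches and nodes 2.51% of all genes were called higher and 3.37% lower. A single called gene in a list of this size therefore says little about its cell type. Of 26 measured enterocyte genes (28 listed), 2 were called higher in Peyer's patches against nodes, the maltase-glucoamylase Mgam (1.20 ± 0.21, adjusted p = 0.00127) and the microvillar cadherin Cdhr2 (0.31 ± 0.08, adjusted p = 0.0356). Their median difference was 0.26, and 16 of the 26 were higher at an unadjusted p under 0.05. Mgam had -0.02, 1.49 and 2.26 on Peyer's patch capillary arrays and 1.36, 1.14 and 1.00 on HEC arrays, so that capillary array 1 alone lay within the node range. Epithelial junction and splicing genes had 1 of 22 higher, the membrane protease St14 (0.69 ± 0.06, adjusted p = 1.88e-06), and 2 lower, Dsg2 (-0.63 ± 0.14) and Marveld3 (-0.50 ± 0.09). St14 was at 0.95 to 1.15 on Peyer's patch capillary arrays and at most 0.24 elsewhere. Marveld3 was at 0.41 to 1.52 in node HEC and at most 0.30 elsewhere. Of 10 measured goblet genes 2 were higher, Clca1 (0.55 ± 0.07, adjusted p = 9.55e-05) and Ccl6 (0.23 ± 0.06), and of 10 transcription factors 1, Hnf4g (0.30 ± 0.08). Among 10 stem and crypt genes 3 were higher: Cd44 (1.61 ± 0.15), Prom1 (1.13 ± 0.07) and Olfm4 (1.01 ± 0.11). Olfm4, a crypt base glycoprotein, had 1.21, 0.70 and 0.62 on Peyer's patch capillary arrays and 0.71, 1.31 and 0.59 on HEC arrays, above every node array. Prom1 was at 3.67 to 3.81 in Peyer's patch capillary cells and 0.75 to 1.97 in node capillary cells. Peyer's patch HEC had -0.23 to -0.06, so the high values lay in capillary cells. Follicle epithelium and M cell genes had 2 of 11 higher, Tnfaip2 (1.01 ± 0.13) and Tnfrsf11a (0.35 ± 0.08), and 1 lower, Pglyrp1 (-0.72 ± 0.11). Tuft cell genes had 0 of 8 higher (0 at an unadjusted p under 0.05) and Dclk1 lower (-0.44 ± 0.08), and of 12 enteroendocrine genes 0 were called, with 0 at an unadjusted p under 0.05. Some called genes of these lists set HEC and capillary cells apart in all 3 tissues. Dclk1 had 2.90 to 3.68 on HEC arrays and -0.69 to 0.71 on capillary arrays, and Pglyrp1 2.36 to 3.10 and -1.65 to 0.44. Tnfrsf11a had 1.26 to 1.79 on HEC arrays and -0.37 to 0.67 on capillary arrays, and Dsg2 1.12 to 2.26 and -1.28 to 0.92.

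Markers of the remaining cell types that a sort could hold were set beside these values for the same comparison. Here too the shares over all genes were 2.51% called higher and 3.37% lower. Pan-endothelial genes had 3 of 14 lower, Egfl7 (-0.45 ± 0.08), Emcn (-0.43 ± 0.07) and Eng (-0.18 ± 0.05), and 0 higher (0 at an unadjusted p under 0.05). Their mean was 0.41 to 0.53 on Peyer's patch capillary arrays, inside the 0.43 to 0.60 of node capillary arrays or just below it, and -0.21 to 0.05 on Peyer's patch HEC, at or below the 0.05 to 0.34 of node HEC. Mesothelial genes, whose cells also make simple keratins, had 1 of 8 higher (Nkain4, 0.26 ± 0.07) and 1 lower (Gpm6a, -0.54 ± 0.10). Of the plasma cell list Sdc1 alone of 8 was called, higher by 0.32 ± 0.08. Jchain of that list had -0.15 to 0.38 on Peyer's patch arrays and -0.18 to 0.10 on node arrays. Mzb1 had -0.18 to 0.19 and -0.17 to 0.15. T cell and myeloid lists each had 1 gene lower (Cd3g, -0.39 ± 0.09, and Cd14, -0.38 ± 0.10), and the smooth muscle list 2 lower (Acta2, -0.65 ± 0.14, and Myh11, -0.49 ± 0.10). Of 7 measured enteric glia and neuron genes Ret was lower (-0.61 ± 0.09). In the B cell and fibroblast lists 0 of 9 and 0 of 10 were called, with 1 higher and 4 lower, and 0, at an unadjusted p under 0.05. As values are centred, none of these lists shows whether a cell type was absent.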

How the data were processed

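The authors deposited log2 signals; the submitters' processing notes name RMA and Partek without a version. RMA subtracts background, equalises array distributions and combines probes, which compresses large differences. Values ran from -4.092 to 6.128, with an exact 0 in 54.47% of 28856 probe sets, so each probe set had been centred on an unstated baseline. Arrays have no read depth; their number limits precision.

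Of the probe sets, 21789 had 1 gene symbol, 1621 several and 5446 none here; 21698 matched RefSeq (GRCm38.p6) by Entrez identifier, with 0 symbols changed. Averaging left 19938 genes (999 had several probe sets, no member did). Groups came from sample titles. limma 3.58.1 (R 4.3.3; lmFit, eBayes) fitted 7 group means to 19 arrays, two-sided, with 12 residual degrees of freedom; mesenteric HEC is the mean of both gates. The fit was tested on simulated data with the same spread in every group, which does not test calls under the uneven spread seen here. Members and lists were chosen with earlier results of these data known. Every member was to be named, with array values for the 4 largest differences in each role, and up to 3 called genes of each other list; values of single Paneth, crypt, myeloid and enterocyte genes were added after they were seen. Of 223 other listed genes 209 were measured. Alternatives were a replicate block, each array left out, the most variable probe set, renewed quantile normalization, median centring, array weights, a robust prior, a range filter and fits of the compared groups alone. Figures used matplotlib 3.10.9 (Python 3.11.15).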

Additional observations from a re-analysis of the deposited data

Results flagged for a closer look

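In peripheral HEC, the only group with 4 arrays, the values of 2 of 38 members set 1 array far from the other three, where chance gives about 1 in 20, or 1.90. Cdh1 was -0.23 on array 4 and -0.15 to -0.14 on the others. Apoa4 was 0.00 on array 3 and -0.20 to -0.17 on the others.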

How the results depend on the processing

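The median member difference between Peyer's patches and nodes stayed positive, at 0.44 to 0.76 with single arrays left out, and no called result changed sign under the settings tried. With single arrays left out, the counts of members called ran from 17 to 31 for Peyer's patches against nodes, 12 to 23 and 3 to 14 for Peyer's patch against peripheral and mesenteric HEC, 3 to 20 and 1 to 19 for the same in capillary cells, 2 to 12 for HEC against capillary cells in Peyer's patches, 1 to 3 in mesenteric and 2 to 6 in peripheral nodes, and 0 to 5 for the interaction. Mesenteric against peripheral nodes and the 2 gates gave 0 throughout. Where a group was left with 1 array, it was assumed to vary like the others. Array weights did not converge and gave Peyer's patch HEC array 1 a weight of 41.6 and arrays 2 and 3 0.214 and 0.182, so these counts are no guide: 30, 27, 18 and 18 for Peyer's patch against peripheral HEC, mesenteric HEC, peripheral capillary and mesenteric capillary cells, 27 and 8 for HEC against capillary cells in Peyer's patches and peripheral nodes, and 15 for the interaction. With the filter on range (35 members tested) the Peyer's patch capillary count against peripheral cells was 11 and that of HEC against capillary cells in Peyer's patches 9, where fewer genes were tested. With only the compared groups fitted these were 3 and 1, and Peyer's patch against mesenteric capillary cells 2. HEC against capillary cells then gave 4 in mesenteric and 10 in peripheral nodes. In these node fits the spread of the Peyer's patch arrays did not enter. Quantile normalization again left 2 in peripheral nodes; the cause was not tested. Replicate numbers only name arrays (same-numbered deviations correlated at -0.43 to 0.56, and 4 of 19 arrays correlated best with their own number). With the replicate number as a block 22 members were called in Peyer's patches against nodes, all among the 26, and 2 of 4 in peripheral nodes.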
